A study of Arabidopsis thaliana with 6 samples.

Results

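PUB23, PUB24 and PUB43 (loci AT2G35930, AT3G11840 and AT1G76390) are plant U-box genes of Arabidopsis, and the transcript of each was more abundant after ozone. They were chosen by symbol, as 3 of the 13286 genes that the array's annotation gives a probe set of their own, and because earlier results of these data had shown them higher after ozone. Their difference between the groups is therefore described and carries no test. The array measures 6 other genes with a PUB symbol this way, PUB15, PUB19, PUB22, PUB25, PUB26 and PUB49, so that 9 of the 22 genes with a PUB symbol in RefSeq were read. Each of the 3 genes is measured by 1 probe set.

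A U-box protein is a ubiquitin ligase: its U-box holds a conjugating enzyme that carries ubiquitin, while another part of the protein, often a row of ARM repeats, holds the target. Targets marked with ubiquitin chains are usually degraded by the proteasome. In Arabidopsis, PUB22, PUB23 and PUB24 act together to dampen the immune response to microbial patterns, and PUB22 and PUB23 also dampen the drought response. PUB43 belongs to the branch of the family that includes SAUL1, a ligase that restrains senescence.

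The arrays hold whole Col-0 seedlings at developmental stage 1.04, raised on 0.8% agar at 20 °C with 16 h of light and 8 h of darkness. In the ozone group (3 replicates) the seedlings received 500 ppb ozone for 6 h, and in the control group (3 replicates) scrubbed air for the same time; plants were extracted directly afterwards. Each replicate was read on 1 Affymetrix ATH1 array as a MAS5 signal, a brightness per probe set on a linear scale. Median signals were 41.7 to 49.4 on the ozone arrays and 45 to 49.5 on the control arrays.

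PUB24 had the largest difference of the 3 genes. Its signal was 211.4, 196.8 and 144.0 on ozone replicates 1, 2 and 3, against 41.4, 46.0 and 48.2 on control replicates 1, 2 and 3. The groups were far apart, and ozone replicate 3, the lowest of its group, was still 2.99 times the highest control. The means were 184 ± 35.5 after ozone and 45.2 ± 3.47 in controls (SD, n = 3 each), a log2 difference of 2.01 or 4.03-fold. The replicates spread more after ozone, where the highest was 1.47 times the lowest, than in controls, where it was 1.16 times.

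PUB23, the partner of PUB22 and PUB24 in immunity, was the most even of the 3. Its signal was 96.2, 90.3 and 83.1 on the ozone arrays, against 33.9, 28.5 and 29.1 on the control arrays. All ozone arrays were above all control arrays, the lowest by 2.45 times the highest control. The means were 89.9 ± 6.56 after ozone and 30.5 ± 2.96 in controls (SD, n = 3 each), a log2 difference of 1.56 or 2.95-fold. The control mean lay below 31.2, the level that the mean over all 6 arrays had to reach to enter the comparison, so PUB23 entered it through its ozone arrays, and signals this dim are imprecise.

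PUB43 had the smallest difference. Its signal was 108.4, 153.0 and 117.2 on the ozone arrays, against 58.8, 49.9 and 46.2 on the control arrays. The groups did not overlap, and here ozone replicate 1 was the lowest of its group and ozone replicate 2 the highest. The means were 126 ± 23.6 after ozone and 51.6 ± 6.48 in controls (SD, n = 3 each), a log2 difference of 1.28 or 2.43-fold.

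**Figure D1:**
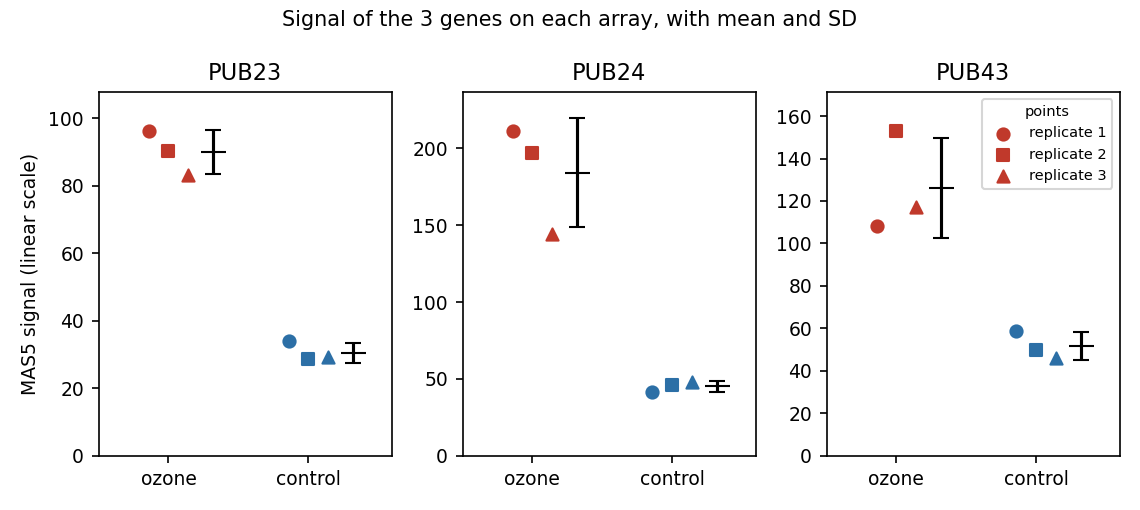
MAS5 signal (linear scale) of PUB23, PUB24 and PUB43 on each array, ozone at the left and control at the right; points are replicates, and the bar beside them is the mean with the SD of 3 arrays. The lowest ozone array is 2.45, 2.99 and 1.84 times the highest control array for PUB23, PUB24 and PUB43.

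All 3 genes passed the filter on dim probe sets, and in all 3 the ozone arrays lay wholly above the control arrays. Of the 13648 probe sets compared, 18.2% had their ozone arrays wholly above and 27.5% wholly below the controls. A difference of this kind that was also at least 2-fold was found at 8.89% of the probe sets. Ordered by log2 difference, PUB24 was at place 425, PUB23 at place 678 and PUB43 at place 895 of the 13648. These places restate the values by which the genes were chosen. Across the array 28.0% of the probe sets changed at a limma adjusted p under 0.05, 13.0% higher and 14.9% lower, and the median log2 difference of all of them was -0.15.

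The 3 genes did not order the ozone arrays alike. Over the control mean, PUB24 was 2.23, 2.13 and 1.67 log2 units higher on ozone replicates 1, 2 and 3. PUB23 was 1.66, 1.57 and 1.45 log2 units higher, so that both genes were lowest on ozone replicate 3. PUB43 was 1.08, 1.57 and 1.19 log2 units higher, with its lowest value on ozone replicate 1. Over the 1777 probe sets called higher, the median excess was 1.370, 1.397 and 1.108 log2 units on the same arrays, so that ozone replicate 3 was also lowest over the probe sets called higher.

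The direction of all 3 genes was the same under every alternative processing in which they could be read, and when any array was left out. Leaving out an array could not turn it, because every ozone array lay above every control array. A change of filter, variance model or block leaves the log2 difference as it is. The kept direction is therefore a description and adds no support. Leaving out 1 array at a time gave log2 differences of 1.90 to 2.18 for PUB24, 1.51 to 1.64 for PUB23 and 1.13 to 1.38 for PUB43. The size depended on how dim signals were treated. With 64 added to every signal the log2 differences were 1.17 for PUB24, 0.703 for PUB23 and 0.712 for PUB43, so that the order of PUB23 and PUB43 turned round.

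**Figure D2:**
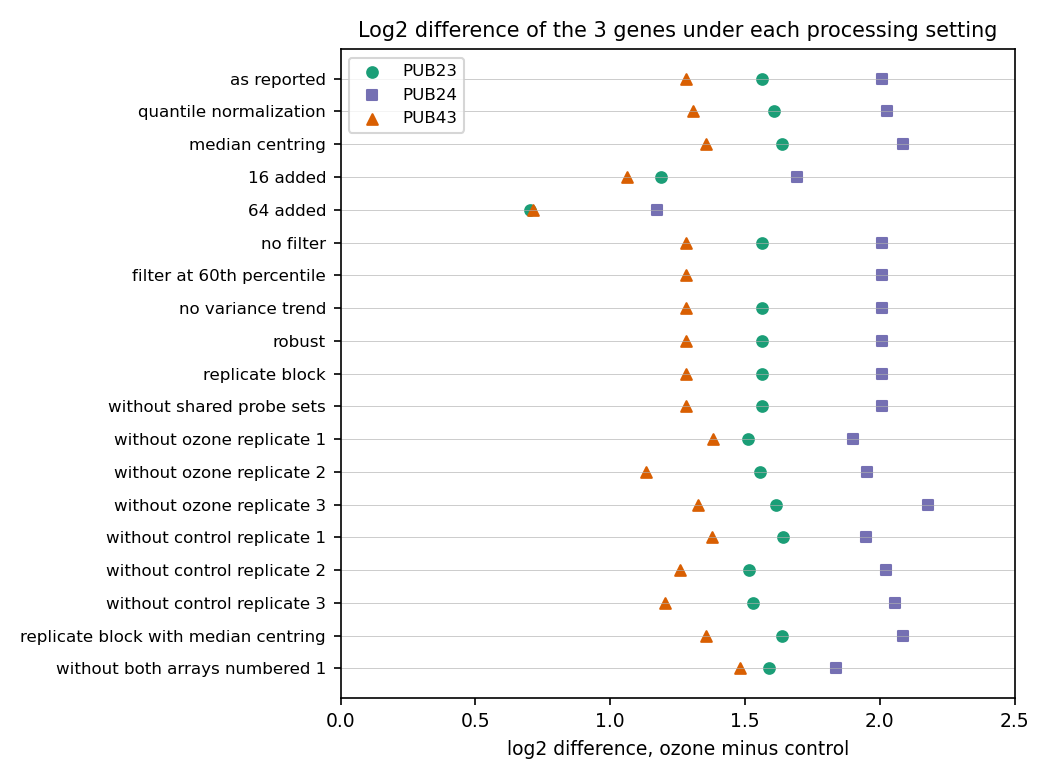
Log2 difference (ozone minus control) of PUB23, PUB24 and PUB43 as reported and under each alternative processing, 1 row per setting. All values are above 0, and the values with 64 added to every signal, 0.703 to 1.17, are the lowest of each gene; PUB23 has no value with the filter at the 60th percentile.

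Among the other U-box genes, PUB19, a ligase that dampens the response to abscisic acid and drought, rose. Its signal was 127.7, 160.2 and 60.5 on the ozone arrays, against 49.1, 30.2 and 36.8 on the control arrays. The groups did not overlap, but ozone replicate 3 was much closer to the controls than the other ozone arrays. The log2 difference was 1.501 (SE 0.369, limma adjusted p = 0.0196), or 2.83-fold. PUB19 rested on few arrays: its limma adjusted p was 0.0512 without ozone replicate 1, 0.0750 without ozone replicate 2, 0.0691 without control replicate 2 and 0.0593 without control replicate 3.

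PUB22, the closest relative of PUB23, did not pass the test. Its signal was 57.8, 42.2 and 63.8 on the ozone arrays, against 50.6, 43.6 and 35.8 on the control arrays. The groups overlapped, with ozone replicate 2 below 2 of the controls. The log2 difference was 0.33 (95% interval -0.21 to 0.86, limma adjusted p = 0.329), an interval that includes both no change and a rise. The difference between PUB22 and PUB23 was not tested, because PUB23 was chosen on the same contrast.

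PUB49, a U-box protein with a cyclophilin-like part, had a log2 difference of 0.26 (limma adjusted p = 0.288), although its ozone arrays, at 64.5, 68.2 and 60.2, all lay above its control arrays, at 49.2, 57.6 and 54.4. Ozone arrays wholly above the controls were found at 18.2% of the tested probe sets. So 1 of the 3 tested genes with another PUB symbol rose and 2 did not pass, beside 13.0% of all probe sets called higher. PUB15, PUB25 and PUB26 were too dim to be tested, with ozone signals of 4.6 to 23.9 and control signals of 3.4 to 23.2. PUB25 and PUB26 are ligases of the immune kinase BIK1. Without the filter, the limma adjusted p of these 3 dim genes was 0.645, 0.785 and 0.991, in the order PUB15, PUB25 and PUB26.

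MAC3A and MAC3B, U-box proteins of a complex that acts with the spliceosome, carry no PUB symbol and were read beside these. MAC3A had a log2 difference of -0.27 (limma adjusted p = 0.537) with overlapping groups. MAC3B was lower on every ozone array, at 452.7, 401.8 and 420.6, against 528.2, 496.9 and 490.8 on the control arrays, with a log2 difference of -0.25 (limma adjusted p = 0.211). Ozone arrays wholly below the controls were found at 27.5% of the tested probe sets. With MAC3A and MAC3B, 1 of 5 tested U-box genes other than the 3 rose, 0 fell and 4 did not pass. Of all probe sets 13.0% were called higher and 14.9% lower. The median log2 difference of the 5 genes was 0.26.

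**Figure D3:**
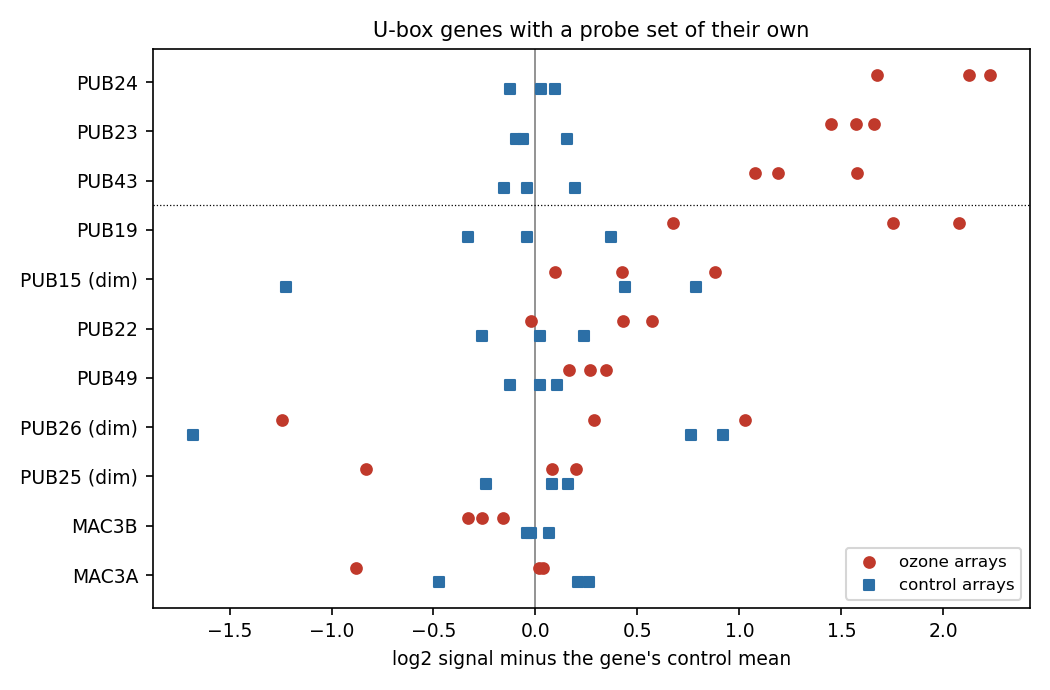
Log2 signal minus the gene's own control mean, on each ozone array (circles) and each control array (squares), for the 11 U-box genes with a probe set of their own; the dotted line parts PUB24, PUB23 and PUB43 from the others, and "dim" marks genes below the filter. Below the line, PUB19 has 2 ozone arrays, at 1.75 and 2.08, within the range of the 3 genes above it, while the ozone arrays of PUB22 overlap with its controls.

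The profile over the 6 arrays, each gene's log2 signal minus its own mean, was compared by root mean square distance. It was 0.22 log2 units between PUB23 and PUB43, 0.29 between PUB23 and PUB24 and 0.45 between PUB24 and PUB43. PUB19 lay 0.40 to 0.45 from each of the 3, and PUB22 lay 0.58 to 0.92 from them. These distances mostly reflect the difference between ozone and control, and they are given as a description.

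Of 7335 other compared probe sets with 1 gene, those closest to PUB24 were ATMDAR2, a monodehydroascorbate reductase that regenerates ascorbate, at 0.07 log2 units, and SRC2, at 0.09. ATMDAR2 had signals of 1063.7, 1015.3 and 761.2 on the ozone arrays, against 235.8, 259.6 and 271.7 on the control arrays, with the same order of arrays as PUB24 in both groups. AT5G17380, AT5G57150 and AT2G04400 followed at 0.11 to 0.13. Closest to PUB23 were AT3G16990, AT1G11330, AT4G22820, AT1G68410 and AT1G78210, at 0.06 to 0.10. Closest to PUB43 were AT3G28220, AT3G06890, AT4G02940, AT5G55860 and BIGYIN, a gene of organelle division, at 0.07 to 0.11.

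Other genes of the ubiquitin system were read in lists by their step. Of 58 listed genes of other ligase families, 3 had a probe set of their own, RING1, ATL8 and XERICO, called the RING ligases below. Of these 3, 2 rose and 1 did not pass, beside 13.0% of all probe sets called higher. The median log2 difference of the 3 was 1.48. Not all RING genes are in this list. ATL4H (log2 difference -0.22, limma adjusted p = 0.557) and ATL63, which was below the filter, were read in a separate list of other ligases. The count and the median therefore describe this list and not RING genes as a whole. RING1, a RING-finger ligase linked to programmed cell death, had 232.7, 128.2 and 170.4 on the ozone arrays, against 69.8, 70.7 and 47.1 on the control arrays, and rose by a log2 difference of 1.48 (SE 0.266, limma adjusted p = 0.00559). ATL8, a RING-H2 ligase, had 126.8, 146.1 and 47.0 on the ozone arrays, against 37.2, 30.3 and 30.5 on the control arrays, and rose by 1.55 (SE 0.405, limma adjusted p = 0.0244). Like PUB19, ATL8 was lowest on ozone replicate 3 within its group. Its limma adjusted p was 0.0646, 0.0932, 0.0727 and 0.0723 without ozone replicate 1, ozone replicate 2, control replicate 2 and control replicate 3. XERICO, a small RING-H2 protein of abscisic acid metabolism, had a log2 difference of -0.25 (limma adjusted p = 0.271).

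Conjugating enzymes hand ubiquitin to the ligases. Of 52 listed genes of ubiquitin activation and conjugation 13 had a probe set of their own. Of the 12 that were tested 1 rose, 0 fell and 11 did not pass by limma, where 13.0% of all probe sets were called higher and 14.9% lower, and their median log2 difference was 0.12, against -0.15 over all probe sets. UBC32, a conjugating enzyme of protein degradation at the endoplasmic reticulum, had 202.8, 241.8 and 234.9 on the ozone arrays, against 113.3, 132.6 and 150.1 on the control arrays. All ozone arrays were above all controls, and the gene rose by a log2 difference of 0.78 (SE 0.168, limma adjusted p = 0.0114). UBC27 and UBC20 had log2 differences of 0.40 and -0.48 and did not pass (limma adjusted p = 0.152 and 0.131). With the replicate number as a block, 5 of the 12 rose, UBC32, UBC30, UBC19, UBC27 and UBC29, and UBC20 fell, where 19.1% of all probe sets were called higher and 30.0% lower.

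Ubiquitin-specific proteases remove ubiquitin again. Of 11 tested genes of this family, whose list, like the next, was made from the symbols on the array, 0 rose and 0 fell by limma, where 13.0% of all probe sets were called higher and 14.9% lower. An unadjusted p under 0.05 was found for 2 of the 11, against 5586 of all 13648 probe sets, and the median log2 difference was 0.03. Those 2 were UBP18, higher by 0.71 log2 units (limma adjusted p = 0.0557), and UBP21, lower with a log2 difference of -0.57 (limma adjusted p = 0.0710); with the block both passed (adjusted p = 0.0115 and 0.0217). UBP15 came next, with a log2 difference of -0.28 (limma adjusted p = 0.309). Of 5 tested genes of other ligases, the cullin CUL4, the F-box genes SKP2A and FBL17, the RING gene ATL4H and the signalosome subunit CSN5B, 0 changed by limma, beside 28.0% of all probe sets, and 0 had an unadjusted p under 0.05. Their median log2 difference was -0.30, and the values ran from -0.43 for FBL17, which fell with the block (adjusted p = 0.0244), to 0.60 for SKP2A, with CSN5B at -0.35 (limma adjusted p = 0.223). RPN12a, a lid subunit of the proteasome that PUB22 and PUB23 are known to mark, had a log2 difference of 0.28 (limma adjusted p = 0.220). Of 59 listed proteasome genes it was the only 1 with a probe set of its own, so the proteasome as a whole was not read.

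**Figure D4:**
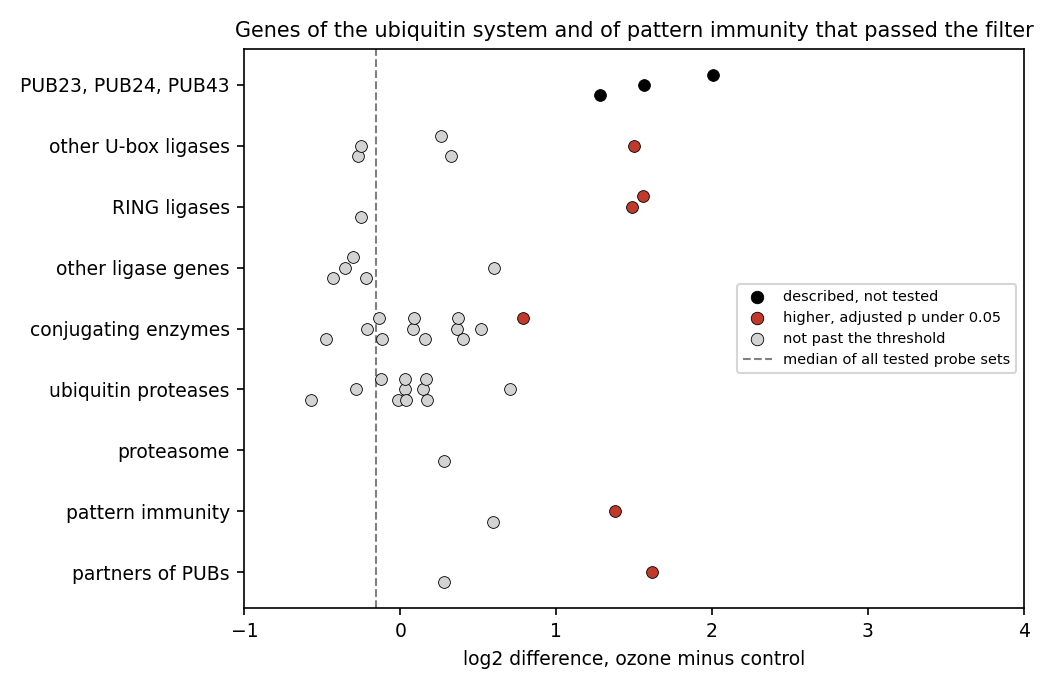
Log2 difference (ozone minus control) of each gene above the filter, 1 row per list; black points are PUB23, PUB24 and PUB43, red points rose at a limma adjusted p under 0.05, grey points did not pass, and the dashed line is the median of all 13648 probe sets, -0.15. The black points, chosen because they were higher after ozone, lie above 1.2, and so do PUB19, RING1, ATL8, BIK1 and SAG101. The 12 conjugating enzymes run from -0.48 to 0.78 and the 11 ubiquitin proteases from -0.57 to 0.71. RPN12a is the only point of the proteasome row and appears again among the partners.

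Few immunity genes could be read, 2 of 23 listed partners of U-box ligases and 4 of 35 listed pattern-immunity genes. Neither list is confined to genes tied to PUB23, PUB24 or PUB43. BIK1, a kinase that passes signals from immune receptors, rose by a log2 difference of 1.61 (SE 0.171, limma adjusted p = 0.000590), with 362.4, 319.4 and 255.1 on the ozone arrays, against 100.2, 101.7 and 101.1 on the control arrays. Its ligases PUB25 and PUB26 were too dim to be tested. The other tested partner, RPN12a, did not pass (limma adjusted p = 0.220). Among the 7335 other profiles, BIK1 was at place 8 from PUB23 (0.12 log2 units), place 36 from PUB24 (0.21) and place 191 from PUB43 (0.29). BIK1 was picked by name for these distances, which mostly reflect the difference between ozone and control. Of 2 tested genes in the list called pattern immunity 1 rose, SAG101, beside 13.0% of all probe sets called higher, and WRKY22 did not pass. The list is broader than its name, so the rise of SAG101 is not read as a rise of pattern immunity. SAG101, a partner of the immune regulator EDS1, rose by 1.38 (SE 0.220, limma adjusted p = 0.00344). Its control mean, 25.8, lay below the filter level of 31.2, so SAG101 entered the test through its ozone arrays. WRKY22, a transcription factor downstream of flagellin perception, had 0.59 (limma adjusted p = 0.274). The receptor gene EFR and WRKY53 were below the filter. WRKY53 had 71.8, 52.8 and 52.3 on the ozone arrays, against 14.3, 15.5 and 13.4 on the control arrays, and EFR had 28.1, 34.5 and 14.2 on the ozone arrays, against 6.7, 1.6 and 0.9. Without the filter both rose (limma adjusted p = 0.00192 and 0.0207). All control signals of both genes lay below the filter level of 31.2, and signals this dim are imprecise. That setting called 3726 probe sets in either direction, out of all probe sets on the array except its controls. The array holds 22810 with the controls included. The share called higher in that setting is not given, so the 2 rises have no background to be set beside.

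The genes beside the 3 ligases on the chromosome were read as well, 4 protein-coding genes on either side in the order of RefSeq's TAIR10.1. Of these 24 neighbours 13 are measured by their own probe set; of the 10 tested, 3 rose, 1 fell and 6 did not pass, beside 13.0% of all probe sets called higher and 14.9% lower. Counts this small do not set the neighbours apart from other probe sets. Beside PUB23, 2 were tested and neither passed, with log2 differences of -0.03 and -0.19. Beside PUB24, the genes directly before and after it, AT3G11830 and AT3G11850, had 0.04 and -0.15 and did not pass, while AT3G11880, 4 genes away, rose by 0.88 (limma adjusted p = 0.0143). The call of AT3G11880 was lost when ozone replicate 2 (limma adjusted p = 0.0594), control replicate 2 (0.0556) or control replicate 3 (0.0551) was left out.

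Beside PUB43, 2 of 5 tested neighbours rose, 1 fell and 2 did not pass, where 13.0% of all probe sets were called higher and 14.9% lower. ATL8, the RING-H2 ligase described above, lies 3 genes after PUB43. AT1G76360, 3 genes before it, rose by a log2 difference of 1.22 (limma adjusted p = 0.0158). Its adjusted p was 0.0681 when ozone replicate 2 was left out and 0.0586 when control replicate 3 was. Between PUB43 and ATL8, AT1G76405 fell, with a log2 difference of -0.79 (limma adjusted p = 0.0149, and 0.0569 and 0.0731 when each of those 2 arrays was left out), and AT1G76400 had -0.57 (limma adjusted p = 0.0661, and 0.0153 with the block). AT1G76380, directly before PUB43, had 0.53 (limma adjusted p = 0.108, and 0.0323 with the block). The genes next to PUB43 thus went both ways.

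Whole seedlings hold many cell types, and in such samples fewer cells of a type cannot be told apart from less RNA per cell. Of the listed markers, 7 of 17 leaf, 3 of 12 root and 3 of 7 guard cell genes had a probe set of their own. The summed signal of 7 leaf genes was 8835 to 13289 on the ozone arrays, against 12810 to 20325 on the control arrays, and 3 of the 7 fell, PRK, LHCB4.2 and SBPASE, beside 14.9% of all probe sets called lower. With the block 7 of the 7 fell, beside 30.0% of all. The log2 differences of the 7 were -0.97 to -0.20. Without 1 array, 1 to 3 of the 7 fell: the count was 1 without ozone replicate 2, ozone replicate 3, control replicate 1 or control replicate 3. For 3 root genes the sum was 1857 to 2478 against 2235 to 3440. Nearly all of this sum was PYK10, at 1805.8 to 2419.8 against 2154.2 to 3350.2. Of the 3 genes 1, the root hair gene EXPA7, fell (0 without control replicate 3), while EXPA18 and PYK10 did not pass (limma adjusted p = 0.0938 and 0.315). The ozone means of EXPA7 (24) and EXPA18 (26.6) lay below the filter level of 31.2. Both genes thus entered the test through their control arrays. With the block EXPA7 and PYK10 fell (adjusted p = 0.00569 and 0.00754). The log2 differences of the 3 were -0.94 to -0.33. Of 3 guard cell lineage genes, summing to 51.7 to 69.8 against 47.0 to 102.9, 1, FMA, could be tested and did not pass (log2 difference -0.34, limma adjusted p = 0.372). Leaf genes and the root gene PYK10 were thus present in both groups. The part of cell type in the differences of PUB23, PUB24 and PUB43 was not tested.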

How the data were processed

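The authors deposited 1 linear intensity for each probe set of each array, the MAS5 signal; MAS5 is named, with no version, per the submitters' processing notes. Detection calls were not used here.

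Zeros (95 values) took their array's smallest positive signal, signals were taken to log2 with no pseudocount, and 64 control probe sets were removed. A filter at the 40th percentile of the mean log2 signal (31.2 as a signal) kept 13648 probe sets. The groups were compared with limma 3.58.1 (R 4.3.3; two-sided, eBayes with trend), and p-values were adjusted by Benjamini-Hochberg over all 13648, with a threshold of 0.05. A fold is 2 to the power of the log2 difference, which is ozone minus control. The code was tested on simulated data. Whether replicates are separate cultures is not given in the labels: the spread that p-values measure may then be technical. The precision is limited by the number of arrays.

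The platform's annotation names 13513 probe sets with 1 gene, 503 with several and leaves 8730 without a name here; 13436 matched a RefSeq locus. Genes were taken from probe sets with 1 gene; where a locus had several, the one with the highest mean stood for it. List names were matched through the same tables, and DAL1, whose entry has no RefSeq locus, was left out. Named are all tested U-box genes, for each list the 3 genes with the smallest p and the one with the smallest p in the other direction, the cell type markers mainly in ranges, and the 5 closest profiles of each member. The members and lists were chosen with earlier results of these data known; the lists of ubiquitin proteases and other ligase genes, the chromosome neighbours, the block with median centring and the setting without both arrays numbered 1 were added after the files were seen.

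Replicates carry the numbers 1 to 3 in both groups, with no meaning given. Deviations from the group means, across the tested probe sets, correlated at 0.747, 0.374 and 0.439 between ozone and control arrays of the same number, all above 0.1, so the number was read as pairing the arrays. Unlike numbers correlated as well for ozone replicate 3 with control replicate 2 (0.412) and ozone replicate 2 with control replicate 3 (0.368), and below 0 where 1 array was numbered 1. Deviations sum to 0 within a group, so a shared difference of the arrays numbered 1 alone makes the others correlate. These values therefore do not show a pairing of replicates 2 and 3, and the block mainly sets the arrays numbered 1 apart. A fit with this number as a block is quoted where a call changes.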

Additional observations from a re-analysis of the deposited data

Results flagged for a closer look

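The array's own control probe sets for ubiquitin, the protein that the ligases attach, were not part of the comparison, and in 2 of the 5 the ozone arrays lay wholly above the control arrays, a difference outside the main measurement. One of the 2 probe sets for the 5' end of the transcript had 1311.8, 1177.1 and 1050.4 on the ozone arrays, against 762.0, 753.4 and 806.0 on the control arrays, a log2 difference of 0.603. The one for the middle had 1062.4, 1141.3 and 996.8 against 547.1, 667.6 and 650.5, a log2 difference of 0.782. The other 3 overlapped between the groups: the second set for the 5' end had a log2 difference of 0.35, and the 2 for the 3' end had 0.16 and 0.00. Sets at the 5' end, middle and 3' end are also used to read RNA integrity, whose part in these differences was not tested. Groups without overlap in this direction were found at 18.2% of the tested probe sets.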

How the results depend on the processing

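The log2 differences of PUB24, PUB23 and PUB43 kept their direction in all 18, 17 and 18 alternatives that gave a value, and moved by more than the spread between replicates only when a constant was added: with 16 added PUB24 had 1.69 and PUB23 had 1.19, and with 64 added PUB24, PUB23 and PUB43 had 1.17, 0.703 and 0.712. The constant shrinks differences of dim signals by construction. Changes of filter, variance model or block cannot alter these log2 differences, and leaving out an array cannot turn their direction, so the kept direction is no separate support. With the replicate block, 6699 probe sets were called, against 3816 without it, and 6185 with the block and median centring. Leaving out 1 array gave 2246 to 3690 calls, with 2246, 2408 and 2273 without ozone replicate 2, control replicate 2 and control replicate 3. The count of other U-box genes that rose was 0 with the filter at the 60th percentile, where PUB19 was not tested, and 0 to 1 without 1 array; the block left it at 1. Leaving out 1 array gave 1 to 2 RING ligases higher, 1 to 2 conjugating enzymes higher, 0 to 1 ubiquitin proteases higher and 0 to 1 lower, 0 to 1 other ligase genes higher, 1 to 3 leaf genes lower and 0 to 1 root genes lower. With the block, with or without median centring, 5 conjugating enzymes rose and 1 fell, 1 ubiquitin protease rose and 1 fell, and 2 root genes fell. Leaf genes lower were 7 with the block, 5 with the block and median centring, and 1 with median centring or no filter. Median centring alone called 3430 probe sets in either direction. Of the other ligase genes 1 fell with the block, or 1 rose with the block and median centring. Without both arrays numbered 1, 4839 probe sets were called in either direction, against 3816 with all arrays. Conjugating enzymes higher were then 2, RING ligases higher 1 (ATL8 lost, limma adjusted p = 0.0551), root genes lower 2 and guard cell genes lower 1. Genes of the pattern-immunity list higher were 2 with 64 added, 3 without the filter and 0 with the filter at the 60th percentile. The filter at the 60th percentile also gave 1 RING ligase higher and 0 root genes lower. Without the variance trend 1 ubiquitin protease rose. Over all probe sets, these settings called 4001, 3726, 2969 and 3783 in either direction, in the order named. The settings without the filter and with the 60th percentile compare other numbers of probe sets. Except where stated, the cause was not tested.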
